A study of Oryza sativa with 4 samples.

Results

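The wild type channels of a rice panicle array study are described here: the 4 channels that held wild type RNA, of 8 channels on 4 arrays, taken as the first channel that the labels give for each array. The study asked which genes act downstream of RFL, the rice counterpart of the floral regulator LEAFY, and hybridised wild type RNA on 2-colour Agilent arrays beside RNA of panicles carrying an RFL antisense construct (2 arrays) or a dsRNAi construct against RFL (2 arrays). All RNA came from panicles of the rice TP309, called branching panicles in every array title, and the wild type plants are given with no construct. Wild type RNA was in Cy3 on array 1 and in Cy5 on array 2 of each pair. The labels give neither age, the promoters of the constructs nor the number of plants or transgenic lines, and do not settle whether both arrays of a pair held separate wild type pools, although the design text speaks of independent pools. The p-values and standard errors thus measure the spread between arrays, which may be technical. For the swapped array of each pair the protocol text and the label field disagree on the dye of the wild type RNA, and the label field was taken.

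Both antisense arrays belonged to scan 1 and were read with Feature Extraction 8.1.1.1, and both dsRNAi arrays belonged to scan 2 and were read with version 9.1.3.1. Scan, software version and pair of arrays therefore coincide, and a difference between the wild type pairs cannot be told apart from a difference between these batches. The transgenic channels lay on the same arrays in the same scans and are given beside the wild type values for that reason.

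A rice panicle begins as an inflorescence meristem that makes primary and secondary branches and then spikelets, a passage in which KNOX homeobox proteins keep meristem cells undifferentiated and MADS-box proteins specify spikelet and floral organ identity. Plant cells short of oxygen turn to fermentation: pyruvate decarboxylase and alcohol dehydrogenase convert pyruvate to ethanol, and alanine aminotransferase and glutamate decarboxylase divert it and glutamate to alanine and 4-aminobutyrate. Drying tissue accumulates dehydrins and other late embryogenesis abundant proteins under the control of abscisic acid, while chitinases, protease inhibitors and germins belong to the response to pathogens and wounding.

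Of 21495 probes on each array, 16040 and 17270 were well above background in the wild type channel of the antisense arrays, and 14722 and 16127 in that of the dsRNAi arrays. Probes well above background in at least 2 of the 4 wild type channels were kept, and 16554 could be tested. A probe is named by its cDNA accession together with the description that the files give, which is often that of a homologue in another species. No description named RFL (0 of 21495 probes), so the targeted gene was not checked here. Signals are log2 values after background correction and normalization, given in the order antisense array 1, antisense array 2, dsRNAi array 1, dsRNAi array 2. A difference is the mean of the dsRNAi arrays minus that of the antisense arrays ± the moderated SE of limma (n = 2 channels in each pair), and it was called at a Benjamini-Hochberg adjusted p of 0.05 over all tested probes.

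The brightest described cDNAs of the wild type channels included products of translation, chromatin, the cytoskeleton, the cell wall and glycolysis, and a few of stress responses. A probe's brightness depends on its sequence as well as on its RNA, so the order among probes is that of signals and not of RNA abundance. The 20 described cDNAs with the highest lowest signal included elongation factor EF-1 alpha (AK072285 and AK061464), which brings aminoacyl tRNA to the ribosome, histone H4 (AK058436), ribosomal protein S8 (AK068316) and a cDNA similar to ribosomal protein 41 (AK105083). They further included alpha-tubulin (AK102194), a xyloglucan endotransglycosylase-like protein (AK058291) that belongs to the enzymes of cell wall loosening, an HSP70 chaperone (AK109474), the glycine-rich RNA-binding protein OsGRP1 (AK073614) and S-adenosylhomocysteine hydrolase (AK059712), which serves methylation. The glycolytic enzymes fructose-bisphosphate aldolase (AK061050) and cytosolic glyceraldehyde-3-phosphate dehydrogenase (AK099086) were among them, as were LIP5 (AK059150) and LIP9 (AK070197), which were named in rice for their induction by low temperature. The others were described as a pathogenesis-related protein (AK101969), Ramy1 (AK069098), the proline-rich OsPRP1 (AK059409), a glycine and proline-rich protein (AK068289), SCUTL1 (AK101837) and a cytokinin-binding protein (AK060655).

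Each of these 20 had a saturated wild type spot on at least 1 array (0 had none), which limits their values from above. LIP9 (AK070197) gave log2 signals of 16.79, 15.19, 16.33 and 15.63, and LIP5 (AK059150) gave 16.76, 15.22, 15.67 and 15.24. In both, array 1 of each pair, with wild type RNA in Cy3, stood above array 2, and the pairs overlapped. Glyceraldehyde-3-phosphate dehydrogenase (AK099086) gave 16.73, 15.23, 15.11 and 15.18, so that antisense array 1 stood apart from the other 3. Ribosomal protein S8 (AK068316) was the most even of the named set, at 15.13, 15.16, 15.05 and 15.08.

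**Figure D1:**
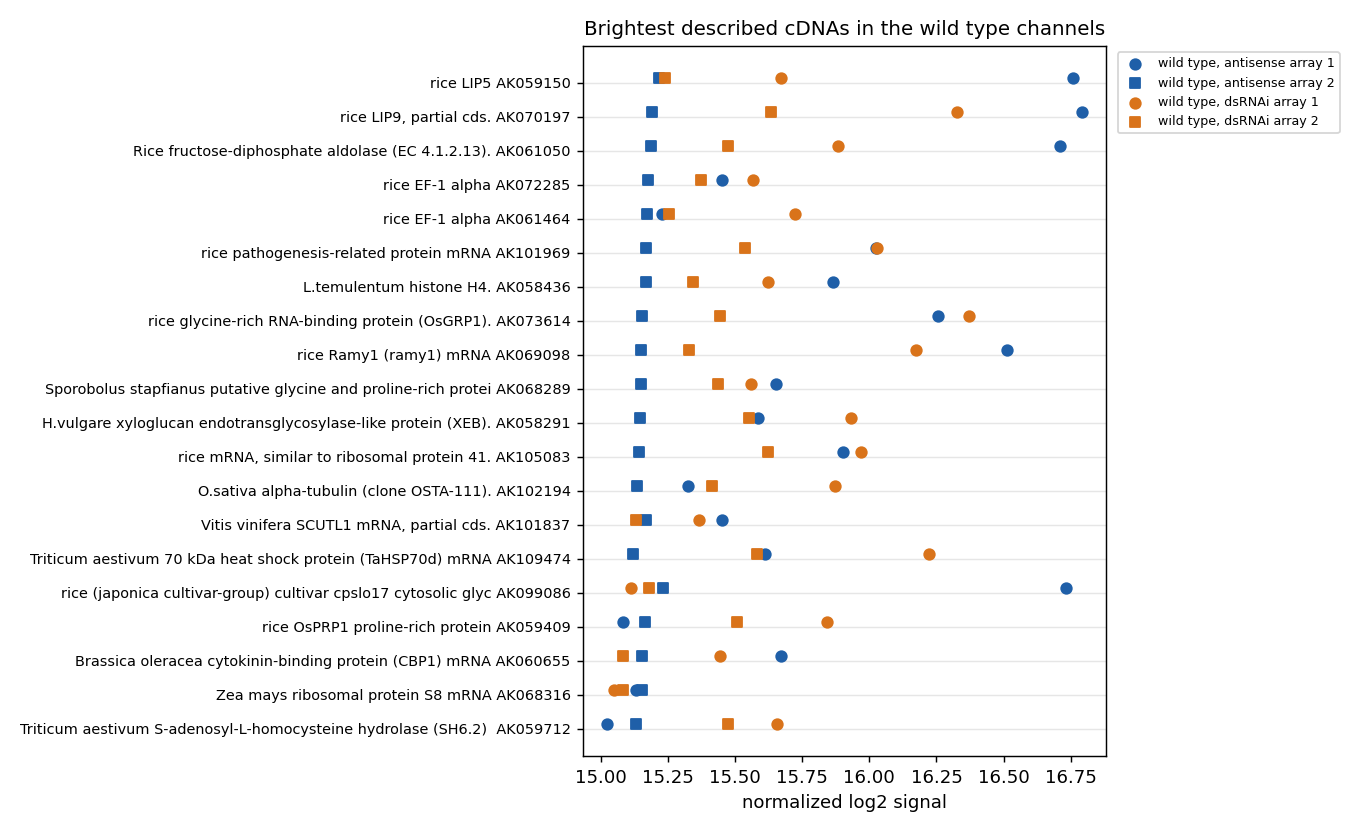
Normalized log2 signals of the 20 brightest described cDNAs in the 4 wild type channels, ranked by their lowest signal (circles are array 1 and squares array 2 of each pair, antisense in blue, dsRNAi in orange). Antisense array 2 lies in a narrow band near its saturation limit, between 15.12 for AK109474 and 15.23 for AK099086, and 18 of the 20 cDNAs did not pass the test between pairs.

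Of the 20, 2 differed between the wild type pairs in the test over all probes. A cDNA that is dim in 1 pair cannot enter a set ranked by its lowest signal, and saturation limits differences. The small count is therefore not read as evenness of bright cDNAs. OsPRP1 (AK059409) gave 15.08, 15.17, 15.84 and 15.51, higher on the dsRNAi arrays by 0.55 ± 0.14 (limma adjusted p = 0.0135). S-adenosylhomocysteine hydrolase (AK059712) gave 15.02, 15.13, 15.66 and 15.47, higher by 0.49 ± 0.14 (limma adjusted p = 0.0252). Each had 1 saturated wild type spot, whose value is a lower limit, so both differences are uncertain. Both calls ended with a dye term in the fit of all channels (adjusted p = 0.0745 and 0.0653) but not in that of the wild type channels alone (0.0208 and 0.028), and they ended without antisense array 1 (0.085 and 0.129), antisense array 2 (0.0546 and 0.0685) or dsRNAi array 1 (0.0921 and 0.137). S-adenosylhomocysteine hydrolase also lost its call without dsRNAi array 2 (0.0531). LIP5 (AK059150), fructose-bisphosphate aldolase (AK061050) and glyceraldehyde-3-phosphate dehydrogenase (AK099086), not called with all arrays, were called higher on antisense array 1 once antisense array 2 was left out (limma adjusted p = 0.000864, 0.0108 and 1.53e-05). That fit has 1 antisense wild type channel, assumed to vary like the other groups, and all 3 cDNAs had saturated wild type spots, so no size is read from it. Among the 100 brightest probes, described or not, 19 encoded ribosomal proteins, 6 belonged to the cell division and histone list and 5 to the heat shock list. Of these 100 probes 16 were called (16%, beside 35.6% of all tested probes), 7 higher on the dsRNAi and 9 higher on the antisense arrays. They were ranked by the same rule and 48 had a saturated wild type spot, so the lower share is not read as a result.

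Over all tested probes the wild type pairs differed widely. Of the 16554 tested probes 5887 (35.6%) were called, 2899 (17.5%) higher in wild type on the dsRNAi arrays and 2988 (18.1%) higher on the antisense arrays. Of these, 959 (5.79% of all tested) and 601 (3.63%) differed by at least 2-fold. The pairs of channels did not overlap in 11323 probes (68.4%), called or not. These included all 5887 called probes, so pairs that stand apart in a called cDNA add nothing to its call. Without antisense array 2 the counts were 1900 and 1792, and 3462 of the 5887 calls remained. With median centring of each array in place of loess only 442 and 290 were called, a share of 60.4% higher on the dsRNAi arrays against 49.2% with loess. A dye term gave 1584 and 1308 in the fit of all channels, and 3055 and 3082 in a fit of the wild type channels alone. With the dyes balanced in each pair it moved no difference itself, and of the 107 named cDNAs 11 lost their call in the first of these fits and 0 in the second, which gained 2 calls. Across probes the wild type signals correlated at 0.987 within the antisense pair and 0.990 within the dsRNAi pair, and at 0.927 to 0.939 between arrays of different pairs. These correlations run over 16554 probes of shared arrays and are given as a description.

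Fewer probes were called in the transgenic channels of the same arrays. The same contrast called 420 probes there (2.54%), 38 to 257 with 1 array left out and the fewest without dsRNAi array 2, 202 (1.22%) higher on the dsRNAi and 218 (1.32%) higher on the antisense arrays. Both a call and a 2-fold difference were reached by 97 (0.586%). The SD of the differences over all probes was 0.652 in wild type and 0.302 in the transgenic channels. The test of the difference between both contrasts called 3267 probes (19.7%), 1975 (11.9%) with the wild type difference above and 1292 (7.8%) with it below the transgenic one. The count of 3267 was 2144 without antisense array 1 and 1985 without dsRNAi array 1, 14 with median centring and 7778 with a dye term. Of the 1560 probes called at 2-fold or more in wild type 1355 passed. They were chosen by the wild type difference, which is 1 term of this test, so that share follows in part from the choice. Of probes called in both kinds of channel, 257 had the same direction and 55 the opposite one.

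**Figure D2:**
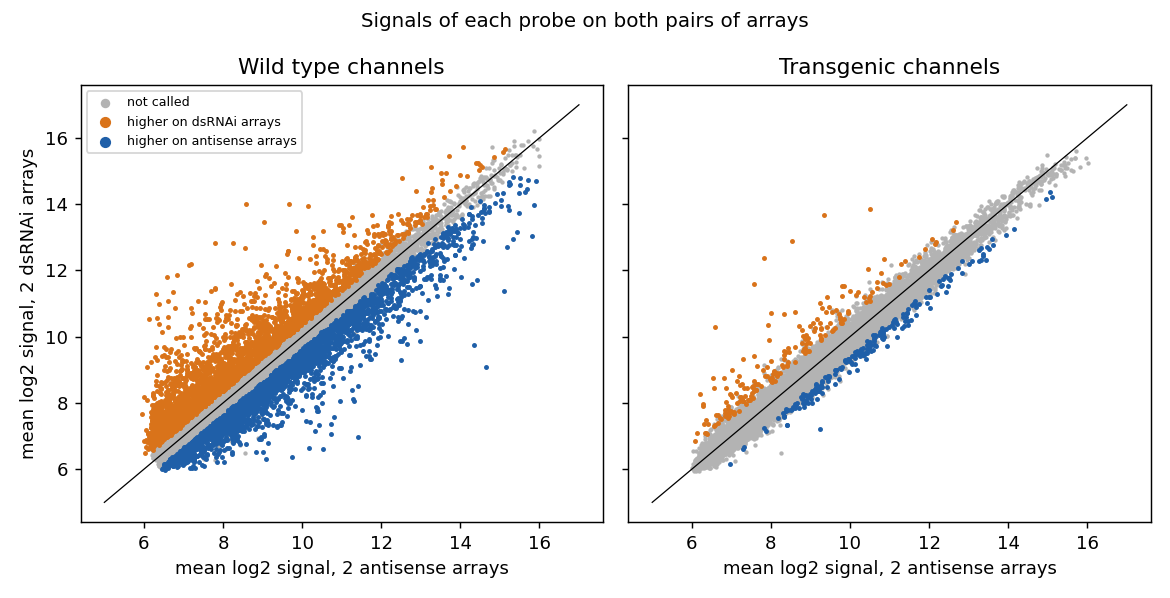
Mean log2 signal of each of 16554 probes on the 2 dsRNAi arrays (vertical axis) against the 2 antisense arrays (horizontal axis), in wild type and in transgenic channels, with called probes coloured by direction. The cloud is wider in wild type, where 5887 probes were called against 420 in the transgenic channels.

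Among the largest differences toward the dsRNAi arrays were those of a chitinase, a protease inhibitor and a cysteine protease. The rice chitinase (AK065866), an enzyme that cuts fungal cell walls, gave 8.55, 8.64, 13.79 and 14.21 in wild type, a difference of 5.40 ± 0.16 (limma adjusted p = 8.8e-08). The Bowman-Birk trypsin inhibitor (AK064050), of a family of seed and wound protease inhibitors, gave 8.02, 7.57, 12.76 and 12.91, a difference of 5.04 ± 0.17 (limma adjusted p = 1.57e-07). A rice cysteine protease (AK071495), with 7.33, 6.96, 12.02 and 12.28, differed by 5.01 ± 0.24 (limma adjusted p = 7.63e-07). In all 3 the pairs were far apart and arrays of 1 pair close together. Their transgenic channels differed by -0.31, -0.43 and -0.59, none called, with saturated transgenic spots on 1 array for the chitinase and 2 arrays for the protease.

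A second cysteine proteinase (AK072235) gave 7.24, 7.11, 11.87 and 12.50, and a cDNA like a jasmonate-induced protein of barley (AK066682) gave 6.50, 6.98, 11.35 and 11.33. The isoflavone reductase-like protein (AK109339) gave 6.40, 6.80, 11.16 and 10.98, and glutathione S-transferase GST 13 (AK059955), of the enzymes that conjugate toxic compounds to glutathione, gave 8.44, 8.66, 12.72 and 12.61. All 4 were higher on the dsRNAi arrays, by 5.005, 4.60, 4.47 and 4.12 (limma adjusted p between 1.78e-07 and 4.2e-06). Of these the glutathione S-transferase AK059955 was also called in the transgenic channels, at 1.13 (limma adjusted p = 0.00495).

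The 3 other cDNAs of the 10 largest differed in both kinds of channel. The 2 cDNAs described as At3g41950 (AK106985 and AK105251) were higher on the dsRNAi arrays by 4.59 and 4.34 in wild type and by 4.57 and 4.33 in the transgenic channels. A cDNA described as an early proembryo mRNA (AK109648) was higher by 4.43 and by 4.36. These 3 had no called difference between wild type and transgenic channels (limma adjusted p of the difference 0.966, 0.988 and 0.847).

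The 2 largest differences toward the antisense arrays were those of an alpha-amylase and a dehydrin. The alpha-amylase (AK073487), of the starch-cutting enzymes that are known to be induced in rice by sugar starvation and gibberellin, gave 14.62, 14.66, 9.20 and 8.95, a difference of -5.57 ± 0.17 (limma adjusted p = 8.94e-08). Its transgenic channels differed in the same direction by -2.03 (limma adjusted p = 0.000317). The dehydrin (AK063517), a protein that protects drying cells, gave 14.28, 14.43, 9.65 and 9.84, a difference of -4.61 ± 0.14 (limma adjusted p = 8.8e-08). The pairs of both cDNAs lay far apart, and the dehydrin differed by 0.03 in the transgenic channels.

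A cinnamoyl CoA reductase-like cDNA (AK064401), of the first step specific to lignin, gave 11.24, 11.57, 7.02 and 6.92, a difference of -4.44 ± 0.29 (limma adjusted p = 4.2e-06). A hydrophobic LEA-like protein (AK063592) gave 10.70, 10.92, 7.71 and 7.47, a difference of -3.23 ± 0.16 (limma adjusted p = 8.38e-07). The other 6 of the 10 were described as a blue copper-binding protein (AK063041, -3.25), a guanylate cyclase (AK102175, -3.20), a nodulin-like protein (AK070844, -3.15), an I-box binding factor (AK107134, -3.12), translation initiation factor 6 (AK103139, -2.85) and the universal stress protein USP1 (AK073356, -2.78). None of these 8 was called in the transgenic channels, where their differences lay between -0.82 (AK107134) and 0.11 (AK064401). Transgenic signals were low in some, at 5.62 to 6.79 for AK064401, 5.57 to 6.85 for AK070844 and 5.83 to 7.29 for AK107134. The lowest wild type signals of any probe were 5.47 to 5.72, so a transgenic difference may not show there.

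Probes that were well above background in both wild type channels of 1 pair and in neither of the other have no measured difference. There were 160 that were dim on the antisense arrays, of which 153 were called (beside 35.6% of all tested probes). Dim on the dsRNAi arrays were 704, of which 198 were called. These probes passed the filter only through their bright pair, so neither count is read as a result. Each bound sets the mean of the bright pair against a floor, on each array the lowest signal of any probe well above background there, or the probe's own signal where that was higher (means of log2 values over 2 arrays with the dyes exchanged). Germin-like protein 2 (GER2, AK059781), of a family of secreted defence proteins, was at least 31.3-fold higher on the dsRNAi arrays. For the next cDNAs the probe's own signals were used on both dim arrays. Their values are plain differences of means from signals not well above background, and not firm bounds. Remorin 1 (AK060379), a plasma membrane protein, was 10.5-fold higher on the dsRNAi arrays by this measure and a fatty acid alpha-oxidase (AK100592) 8.98-fold. The peroxidase pox3 (AK067416) was 8.74-fold higher and an elicitor-inducible glucanase (AK067528) 7.81-fold. In the other direction a flavanone 3-hydroxylase-like protein (AK100853) was at least 9.56-fold higher on the antisense arrays. Phosphoenolpyruvate carboxykinase (AK103839), an enzyme of gluconeogenesis, was at least 6.06-fold higher there. The water stress protein WSI76 (AK107065) was 4.97-fold higher by the plain difference, which is not a firm bound. The same holds for 12-oxophytodienoic acid reductase (AK100034), of jasmonate synthesis, at 2.83-fold. For a further cinnamoyl CoA reductase (AK063935) the bound was 2.77-fold. All 10 were taken from the called probes, so their calls in wild type add nothing to these values. In the transgenic channels none was called, where AK103839 and AK063935 were above background in 0 of 4 channels and cannot be compared.

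The low oxygen list was called in both directions. Of 45 tested members 27 were called (60%, beside 35.6% of all probes), 15 higher on the antisense and 12 higher on the dsRNAi arrays. At 2-fold or more the counts were 10 and 4 (beside 3.63% and 5.79% of all probes), and the median difference of the list was 0.13 beside -0.022 over all probes. None of the 45 was called in the transgenic channels, where 2.54% of all probes were called. Without 12 cDNAs that share only a word with the list by their descriptions, 33 were tested, with 13 higher on the antisense and 9 on the dsRNAi arrays. Without antisense array 2 the count higher on the dsRNAi arrays was 7 of 45.

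Among the 33 members left without the word-sharing ones, 3 of 5 pyruvate decarboxylase and 2 of 4 alcohol dehydrogenase cDNAs were higher in wild type on the antisense arrays and 0 on the dsRNAi arrays. Of 5 alanine aminotransferase cDNAs 3 were higher on the antisense and 1 on the dsRNAi arrays, and of 4 glutamate decarboxylase cDNAs 1 and 2. Over all probes 18.1% were higher on the antisense and 17.5% on the dsRNAi arrays. This tally by enzyme was made after the values were seen and rests on few cDNAs, so it is a description only. Pyruvate decarboxylase 1 (AK100678), which makes acetaldehyde, gave 16.28, 15.33, 12.98 and 13.13, a difference of -2.75 ± 0.26 (limma adjusted p = 4.24e-05), with 1 wild type spot saturated. A second pyruvate decarboxylase (RRJ2, AK100501) gave 12.82, 12.96, 10.09 and 10.34, a difference of -2.67 ± 0.23 (limma adjusted p = 2.04e-05). Alcohol dehydrogenase 2 (AK102799), which reduces acetaldehyde to ethanol, gave 10.24, 10.55, 7.77 and 8.58, a difference of -2.22 ± 0.33 (limma adjusted p = 0.000575). In each of the 3, every antisense array stood above every dsRNAi array, as in all probes called in that direction. Their transgenic channels differed by -0.65, -0.65 and 0.01. Transgenic signals of alcohol dehydrogenase 2 were low, at 6.01 to 6.95, so a difference may not show there.

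Both alanine aminotransferase cDNAs of the named set differed in the same way: AK102488 gave 10.71, 10.35, 8.07 and 8.57, and AK059063 gave 11.42, 11.07, 9.21 and 8.97. Their differences were -2.21 ± 0.27 and -2.15 ± 0.21 (limma adjusted p = 0.0002 and 4.24e-05). Cytosolic pyruvate orthophosphate dikinase (AK065739), which turns pyruvate and phosphoenolpyruvate into each other, gave 10.50, 10.57, 8.59 and 8.59, a difference of -1.94 ± 0.12 (limma adjusted p = 3.94e-06). Glutamate decarboxylase (AK071556), which makes 4-aminobutyrate, gave 16.46, 15.29, 13.84 and 14.12, a difference of -1.90 ± 0.31 (limma adjusted p = 0.00109), with 1 saturated spot. A second cDNA described as the same decarboxylase, OsGAD2 (AK068340), was higher on the dsRNAi arrays by 1.23, so both probes disagree. The calls of AK102488 and AK071556 ended with a dye term in the fit of all channels (adjusted p = 0.106 and 0.0584) and held in that of the wild type channels alone (2.9e-05 and 0.000537). Outside the rule for named cDNAs and chosen after its values were seen, alcohol dehydrogenase 1 (AK069330) gave 11.36, 11.39, 9.78 and 10.11, a difference of -1.43, while a second cDNA of that name (AK073964) stood at 0.13 and was not called.

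Some cDNAs of sucrose synthase, which splits sucrose at the entry to glycolysis, went the other way. A cDNA described as citrus sucrose synthase CitSUSA (AK065549) gave 7.22, 7.32, 8.94 and 8.98, higher on the dsRNAi arrays by 1.69 ± 0.14 (limma adjusted p = 1.33e-05). Further cDNAs described as sucrose synthase, also chosen after their values were seen, were higher there, by 0.88 (AK099406), 0.85 (AK100334) and 0.50 (AK108396). In all 4 of 6 were called higher there, beside 17.5% of all probes. A rice sucrose synthase (AK072074) and one described from wheat (AK100306) were not called, at -0.04 and -0.36.

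**Figure D3:**
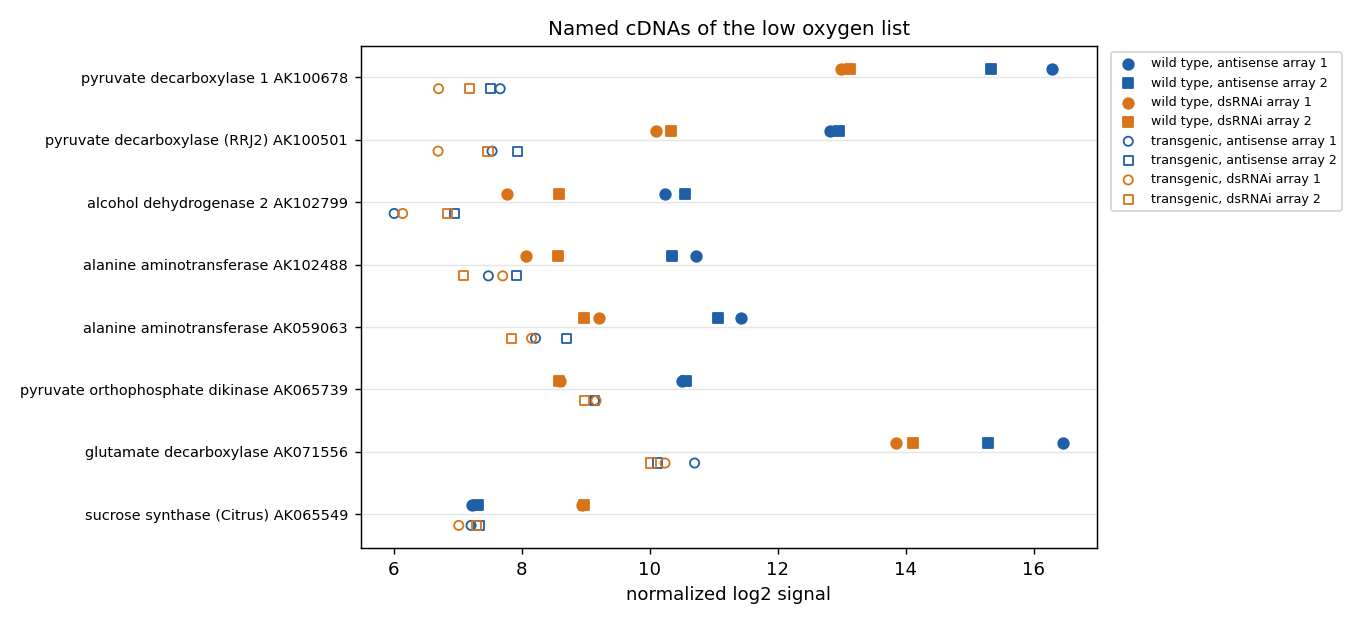
Normalized log2 signals of the 8 named cDNAs of the low oxygen list, in the wild type channels (filled) and the transgenic channels (open) of each array. In 7 of the 8 the wild type signals of both antisense arrays (blue) stand above those of both dsRNAi arrays (orange), and in sucrose synthase AK065549 below them. All 8 were named because they were called, and the pairs overlap in no called probe (68.4% of all tested probes do not overlap).

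Of 42 tested glycolytic enzyme cDNAs 21 were higher on the antisense and 8 on the dsRNAi arrays (69% called, beside 18.1% and 17.5% of all probes by direction), with a median difference of -0.51. With 1 array left out the counts were 17 to 19 and 5 to 7, the lowest of the second without antisense array 2, and with a dye term in the fit of all channels 11 were called higher on the antisense arrays (21 in that of the wild type channels alone). The beta and alpha subunits of pyrophosphate-dependent phosphofructokinase, which phosphorylates fructose 6-phosphate, led the list. The beta subunit (AK069095) gave 13.69, 13.30, 11.83 and 11.62, a difference of -1.77 ± 0.15 (limma adjusted p = 2.38e-05), and the alpha subunit (AK099939) gave 15.29, 15.19, 13.89 and 13.78, a difference of -1.41 ± 0.14 (limma adjusted p = 5.05e-05). A hexokinase (AK107602) gave 11.03, 10.12, 8.68 and 9.70, and its difference of -1.39 ± 0.47 (limma adjusted p = 0.0414) was lost without antisense array 1 (adjusted p = 0.0888), without dsRNAi array 1 (0.156) and with a dye term in the fit of all channels (0.536, but 0.0106 in wild type alone). The transgenic channels called 2 of the 42 (beside 2.54% of all probes), with a median of -0.026.

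Dehydrin, abscisic acid, cold and drought genes differed in both directions, with 18 of 59 higher on the antisense and 11 higher on the dsRNAi arrays (49.2% called, beside 35.6% of all probes), the latter 7 without antisense array 2. Without 18 members that share only a word with the list the counts were 16 and 8 of 41. Beside the dehydrin and LEA-like cDNAs given above, the list named the wheat cold acclimation protein WCOR518 (AK062295), which went the other way with 7.49, 8.28, 10.33 and 10.70, a difference of 2.63 ± 0.24 (limma adjusted p = 3.05e-05). In the transgenic channels 1 of the 59 was called, beside 2.54% of all probes.

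Heat shock genes were called in both directions. Of 83 heat shock and chaperone cDNAs 14 were higher on the dsRNAi and 13 on the antisense arrays (32.5% called, near the share of all probes), and the second count was 7 without dsRNAi array 1. A heat shock transcription factor (AK101182), with 8.06, 8.05, 10.03 and 9.95, was higher on the dsRNAi arrays by 1.93 ± 0.13 (limma adjusted p = 5.48e-06), as was a putative heat shock protein (AK060381) by 1.64 ± 0.15 (limma adjusted p = 3.78e-05). Heat shock protein 26 (AK063618), with 10.29, 10.44, 9.20 and 9.33, was higher on the antisense arrays, the difference being -1.10 ± 0.15 (limma adjusted p = 0.000422).

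Metallothioneins, small proteins that bind metals, were higher in wild type on the dsRNAi arrays in 6 of 7 cDNAs (85.7%, beside 17.5% of all probes in that direction), with a median difference of 1.76. The count was 6 with each array left out. OsMT-1 (AK103162) gave 7.82, 7.18, 10.21 and 10.31, a difference of 2.76 ± 0.19 (limma adjusted p = 4.83e-06), a second OsMT-1 cDNA (AK103445) gave 6.46, 6.33, 8.57 and 8.48, and a metallothionein-like cDNA (AK058313) gave 10.31, 10.86, 12.37 and 12.51. In none of the 3 did the pairs overlap, which holds for every called probe. The transgenic channels had a median of -0.56 over the 7 cDNAs, and AK103162 was called there with the opposite sign, at -0.90 (limma adjusted p = 0.0366). Near-identical members of this family can share RNA on their probes, so the cDNAs are not independent of each other.

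Antioxidant enzymes were higher on the dsRNAi arrays in 48 of 136 and on the antisense arrays in 19 (49.3% called, beside 35.6%). Beside the glutathione S-transferase and the peroxidase above, ascorbate oxidase (AK105605), a cell wall enzyme, gave 8.96, 8.95, 12.19 and 12.12, a difference of 3.20 ± 0.15 (limma adjusted p = 7.63e-07). Its transgenic channels differed by 1.16 (limma adjusted p = 0.00528). Of 143 cDNAs for defence-type proteins and WRKY factors, 52 were higher on the dsRNAi and 20 on the antisense arrays (50.3% called, beside 35.6%), the latter 13 without dsRNAi array 1. Beside the chitinase and trypsin inhibitor above, a bulb chitinase-like cDNA (AK060033) gave 7.90, 7.70, 11.40 and 11.51, a difference of 3.65 ± 0.15 (limma adjusted p = 4.13e-07). At 2-fold or more the defence counts were 31 and 4 (beside 5.79% and 3.63% of all probes). In the transgenic channels 5 of the 143 were called, beside 2.54% of all probes.

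Jasmonate and salicylate genes were higher on the dsRNAi arrays in 9 of 21 and on the antisense arrays in 4 (61.9% called, beside 35.6%), the latter 2 without dsRNAi array 2. Lipoxygenase L-2 (AK073529), of the lipid oxidation step that feeds jasmonate synthesis, gave 8.88, 8.72, 11.26 and 11.36, a difference of 2.51 ± 0.14 (limma adjusted p = 1.38e-06). Allene oxide synthase (AK107161), the step after it, gave 7.54, 7.14, 9.43 and 9.23, a difference of 1.99 ± 0.23 (limma adjusted p = 0.000133). Senescence and protein breakdown genes were higher on the dsRNAi arrays in 10 of 22 and on the antisense arrays in 2 (54.5% called, beside 35.6%). Beside both cysteine proteases above, which belong to that list, nuclease I (AK059608), a nucleic acid degrading enzyme, gave 7.26, 6.55, 9.94 and 10.01, a difference of 3.07 ± 0.24 (limma adjusted p = 1.16e-05).

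**Figure D4:**
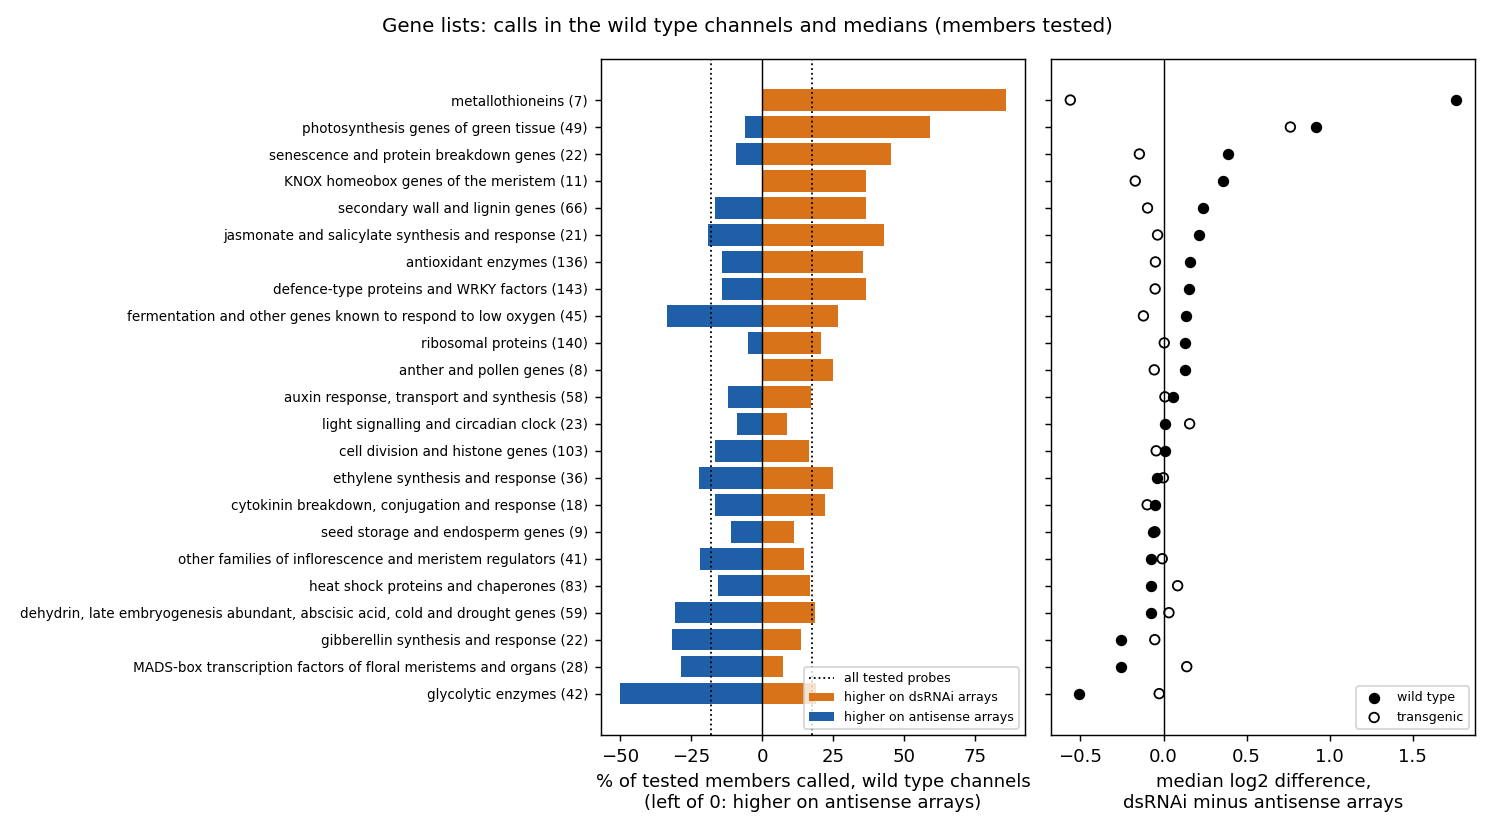
Share of the tested members of each of 23 gene lists called in wild type (left, with the shares of all 16554 probes as dotted lines) and the median log2 difference in wild type and transgenic channels (right). Metallothioneins and photosynthesis genes lie highest, with medians of 1.76 and 0.92, and glycolytic enzymes lowest, at -0.51.

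Photosynthesis genes, markers of green tissue, were higher on the dsRNAi arrays in both kinds of channel. In wild type 29 of 49 were higher there and 3 higher on the antisense arrays (65.3% called, beside 35.6%), with a median of 0.92. The first count was 27 to 29 with 1 array left out, and the second was 0 without antisense array 2 and 1 without either dsRNAi array. In the transgenic channels 26 of the 49 were called (beside 2.54% of all probes), with a median of 0.76. The summed wild type signal of the list, on the linear scale, was 52950 and 55420 on the antisense arrays and 96510 and 101100 on the dsRNAi arrays. A type I light-harvesting chlorophyll a/b-binding protein (AK061619) gave 9.50, 10.17, 13.05 and 13.36, a difference of 3.37 ± 0.29 (limma adjusted p = 2.21e-05), and its transgenic channels differed by 1.74 (limma adjusted p = 0.0187). Cab26 (AK060904), with 8.79, 8.75, 11.20 and 11.25, and Cab27 (AK060265), with 8.72, 8.73, 11.03 and 11.13, differed by 2.45 and 2.36 in wild type and by 1.34 and 1.11 in the transgenic channels. For 11 of the 49 the wild type difference itself differed from the transgenic one, beside 19.7% of all probes, so the count is not read as a trait of the list. These markers moved with the pair in both kinds of channel, and their part in the other differences was not tested. In such bulk RNA, fewer cells of a type and less RNA per cell cannot be told apart.

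**Figure D5:**
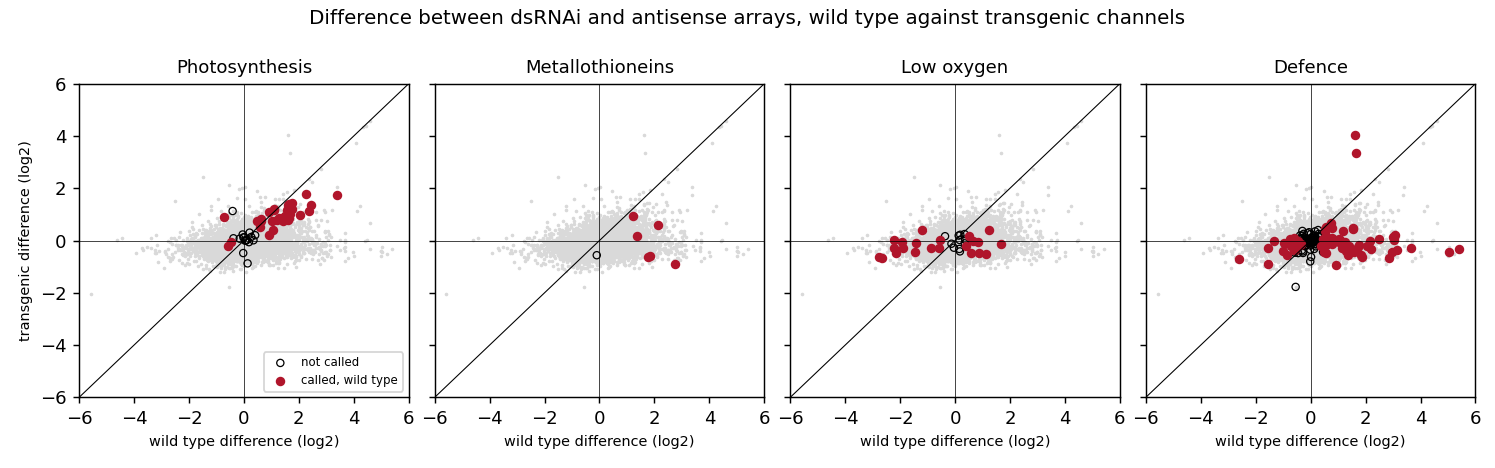
Difference between dsRNAi and antisense arrays in the transgenic channels (vertical axis, log2) against the wild type channels (horizontal axis, log2) for the members of 4 lists, over all probes in grey, with the diagonal of equal difference. Photosynthesis cDNAs are raised on both axes, with 26 of 49 called in the transgenic channels, while low oxygen cDNAs spread along the wild type axis, with 0 of 45 called in the transgenic channels. Over all probes 2.54% were called there.

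Floral regulators were called at about the rate of all probes. Of 28 tested MADS-box cDNAs 8 were higher on the antisense and 2 on the dsRNAi arrays (35.7% called, beside 35.6% of all probes), with a median of -0.26. The first count was 5 and the second 1 without antisense array 2, and the second was also 1 without either dsRNAi array. A FDRMADS6 cDNA (AK069331) gave 12.95, 12.59, 11.27 and 11.52, a difference of -1.37 ± 0.23 (limma adjusted p = 0.00119), and the call ended with a dye term in the fit of all channels (adjusted p = 0.162) but not in that of wild type alone (0.000237). The second FDRMADS6 cDNA (AK061899) gave 13.32, 13.29, 12.41 and 12.43, and MADS18 (AK064704), of the group that acts in the change to flowering, gave 13.52, 13.25, 12.38 and 12.61. In these 3 cDNAs both antisense arrays stood above both dsRNAi arrays, as in all probes called in that direction.

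MADS17 (AK070540) gave 9.49, 10.17, 8.60 and 8.75, with a difference of -1.16 ± 0.29 (limma adjusted p = 0.0108) that was lost without dsRNAi array 1 (adjusted p = 0.0556). OsMADS6 (AK069103), of the group active in floral meristems and organs, gave 12.25, 12.32, 11.74 and 11.42, a difference of -0.71 ± 0.14 (limma adjusted p = 0.00326). The remaining named members were small differences that single arrays decided. A MADS box-like cDNA (AK100227, -0.58) lost its call without antisense array 2 or dsRNAi array 1 (adjusted p = 0.124 and 0.117), and FDRMADS8 (AK070135, 0.54) without antisense array 1 or dsRNAi array 2 (0.105 and 0.0672). MADS4 (AK100233), of the genes for lodicule and stamen identity, stood at -0.49 and lost its call without either antisense array or dsRNAi array 2 (adjusted p between 0.105 and 0.11). In the transgenic channels MADS4 was called with the opposite sign, at 0.75 (limma adjusted p = 0.0294).

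Of 11 KNOX homeobox cDNAs 4 were higher on the dsRNAi arrays and 0 on the antisense arrays, and the share called, 36.4%, was near the 35.6% of all probes. Without 5 members that share only a word with the list, 4 of 6 were called. HOS66 (AK060316), of class 2, which is also expressed outside meristems, gave 7.22, 6.40, 9.39 and 9.59, a difference of 2.69 ± 0.22 (limma adjusted p = 1.6e-05). Hos3 (AK111877) gave 10.53, 10.35, 12.03 and 11.96, a difference of 1.55 ± 0.13 (limma adjusted p = 1.69e-05). The knotted1-type gene OSH43 (AK107296) gave 6.61, 6.58, 7.28 and 7.40, a difference of 0.74 ± 0.13 (limma adjusted p = 0.00185). The pairs overlapped in none of the 3, as in no called probe, and their transgenic channels differed by -0.27, 0.19 and 0.06.

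Other regulators of inflorescence and meristem were called in both directions, 6 of 41 higher on the dsRNAi and 9 higher on the antisense arrays (36.6% called, near the share of all probes), counts that fell to 2 and 5 without antisense array 2, the first also to 2 without dsRNAi array 1. SBP-domain protein 5 (AK107191), of a family that controls branching and phase change, gave 12.37, 12.46, 10.48 and 10.71, a difference of -1.82 ± 0.13 (limma adjusted p = 6.92e-06), and its transgenic channels differed by -0.80 (limma adjusted p = 0.0164). A cDNA like AINTEGUMENTA (AK106306), an organ growth regulator of Arabidopsis, gave 10.97, 10.57, 9.44 and 9.31, a difference of -1.40 ± 0.18 (limma adjusted p = 0.000249). Scarecrow-like 8 (AK100294), with 10.48, 10.13, 11.71 and 11.56, was higher on the dsRNAi arrays by 1.33 ± 0.15 (limma adjusted p = 9.58e-05).

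Markers of later stages were few. Of 8 tested anther and pollen cDNAs 2 were higher on the dsRNAi arrays, 1 without either antisense array or dsRNAi array 2, and 0 on the antisense arrays. The share called was 25%, beside 35.6% of all probes. Of the 15 on the array 7 were not well above background in any wild type channel. The pollen allergen Jun o 4-like cDNA (AK070662) gave 10.15, 9.14, 11.71 and 11.87, a difference of 2.15 ± 0.32 (limma adjusted p = 0.000659). The pollen calmodulin-binding protein NPG (AK073968) gave 8.25, 8.42, 8.60 and 9.22, and its difference of 0.57 ± 0.18 (limma adjusted p = 0.0345) ended without either antisense array or dsRNAi array 2 (adjusted p between 0.0548 and 0.216). Of 9 seed storage and endosperm cDNAs 1 was higher in each direction, the second being the globulin-like Ose710 (AK063624), with 8.63, 7.88, 6.78 and 6.95, whose difference of -1.39 ± 0.28 (limma adjusted p = 0.0035) ended without dsRNAi array 1 (0.054) and with a dye term in the fit of all channels (0.138, but 0.000611 in wild type alone). The first shares only a word with the list by its description. In the seed list 22.2% were called, beside 35.6% of all probes.

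Of 103 tested cell division and histone cDNAs 17 were higher in each direction (33% called, near the 35.6% of all probes). The count higher on the dsRNAi arrays was 9 without antisense array 2 and 11 without dsRNAi array 1, and that higher on the antisense arrays 10 without antisense array 1 and 9 without dsRNAi array 2. Ribonucleotide reductase R2 (AK073063), which makes deoxynucleotides for DNA synthesis, gave 9.37, 9.45, 10.95 and 10.97, a difference of 1.55 ± 0.12 (limma adjusted p = 1.31e-05). The D-type cyclin cycD2 (AK063671) gave 9.20, 8.71, 10.51 and 10.27, and a Cdc2-related kinase (AK098991), with 9.22, 9.35, 7.98 and 7.83, went the other way. Of 140 ribosomal protein cDNAs 29 were higher on the dsRNAi and 7 on the antisense arrays (25.7% called, beside 35.6%), but the first count was 10 without antisense array 1, 17 without antisense array 2 and 15 without dsRNAi array 1, and the second was 4 without antisense array 2 and 3 without dsRNAi array 2. The ribosomal cDNAs named by size were chloroplast S22 (AK061449, -1.38), chloroplast L3 (AK099849, 1.18) and 60S L1 (AK060711, 1.00).

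Wall and lignin genes were higher on the dsRNAi arrays in 24 of 66 and on the antisense arrays in 11 (53% called, beside 35.6%). In the transgenic channels 5 of the 66 were called, beside 2.54% of all probes. Cinnamyl alcohol dehydrogenase (AK067085), the last step to lignin monomers, gave 7.88, 7.84, 10.61 and 10.75, a difference of 2.82 ± 0.13 (limma adjusted p = 5.15e-07). Caffeic acid O-methyltransferase (AK064768), of the same pathway, gave 9.999, 9.85, 12.36 and 12.40, a difference of 2.46 ± 0.15 (limma adjusted p = 3.37e-06). Both were high in wild type on the dsRNAi arrays, where the cinnamoyl CoA reductase-like cDNA above was low. In the transgenic channels AK067085 was called in the same direction, at 0.78 (limma adjusted p = 0.0159), and AK064768 stood at 0.08, not called.

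Among hormone genes, ethylene synthesis and response was called in both directions, 9 of 36 higher on the dsRNAi and 8 on the antisense arrays (47.2% called, beside 35.6%), each 5 without antisense array 2 and the second also 5 without dsRNAi array 2. An AP2/ERF-domain cDNA like potato cip353 (AK106057), of a family that includes ethylene response factors, gave 7.07, 6.50, 8.64 and 8.74, a difference of 1.90 ± 0.18 (limma adjusted p = 3.93e-05). Both dsRNAi arrays stood above both antisense arrays, as in all probes called in that direction, and its transgenic channels differed by -0.24.

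Auxin genes were called in 10 of 58 higher on the dsRNAi and in 7 higher on the antisense arrays (29.3%, below the 35.6% of all probes), and the 3 largest were all of the second kind. An IAA2-like auxin-responsive protein (AK073365), of the family that represses auxin response factors, gave 10.18, 10.18, 6.58 and 6.73, a difference of -3.52 ± 0.20 (limma adjusted p = 1.54e-06). The auxin response factor OsARF7a (AK103312) gave 12.03, 11.96, 9.995 and 10.32, a difference of -1.84 ± 0.14 (limma adjusted p = 9.65e-06). An IAA8-like protein (AK109363) gave 13.79, 13.39, 12.27 and 12.30. Transgenic differences of the 3 were -0.24, -0.07 and -0.45, none called.

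Gibberellin genes were higher on the antisense arrays in 7 of 22 and on the dsRNAi arrays in 3 (45.5% called, beside 35.6%). Gibberellin C-20 oxidase (AK107142), of the synthesis of the hormone, gave 8.75, 9.03, 7.29 and 7.30, a difference of -1.59 ± 0.16 (limma adjusted p = 5.96e-05). OsGA2ox3 (AK101713), of a family that inactivates gibberellin, gave 6.66, 6.63, 7.83 and 8.15, a difference of 1.35 ± 0.17 (limma adjusted p = 0.000221). A gip3-like cDNA (AK059073), not well above background on the antisense arrays, was at least 2.48-fold higher on the dsRNAi arrays. Of 18 cytokinin cDNAs 4 were higher on the dsRNAi arrays, 2 without antisense array 2 or dsRNAi array 1, and 3 on the antisense arrays. The share called, 38.9%, was near the 35.6% of all probes. Cytokinin oxidase CKX6 (AK101022), which breaks the hormone down, gave 10.59, 10.72, 9.22 and 9.20, a difference of -1.45 ± 0.12 (limma adjusted p = 1.93e-05). A cytokinin-binding protein-like cDNA (AK068276) differed by 2.12 and the response regulator ZmRR6 (AK058585) by -0.91, the latter not called with a dye term in the fit of all channels (adjusted p = 0.0818) but called in that of wild type alone (0.002).

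Light and clock genes were called in 4 of 23 (17.4%, beside 35.6% of all probes), 2 in each direction. With single arrays left out 0 to 4 were higher on the dsRNAi arrays (0 without antisense array 2, 4 without antisense array 1, 1 without either dsRNAi array). A cDNA like LHY (AK111726), a MYB factor of the circadian clock whose RNA is known to peak around dawn, gave 8.82, 8.99, 6.97 and 6.85, a difference of -1.99 ± 0.15 (limma adjusted p = 8.97e-06). In the transgenic channels it stood at 0.38 (limma adjusted p = 0.217). An early light-inducible protein (AK062972) gave 9.30, 9.48, 8.55 and 8.66, a difference of -0.78 ± 0.13 (limma adjusted p = 0.00137), and a PIF4-like factor (AK066763) stood at 0.58 and was not called without antisense array 2 (adjusted p = 0.0717). Harvest times are not given in the sources used here.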

How the data were processed

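RNA of wild type and transgenic rice panicles was hybridised on 4 2-colour Agilent arrays. The files are the deposited scanner intensity values with Agilent's own processed signals and log10 ratios, made by the authors with Agilent Feature Extraction, per the file headers. Version 8.1.1.1 read the pair with antisense RNA, version 9.1.3.1 the other pair. The authors' deposited table of values of the series behaved as a log2 ratio when set against the scanner ratios and served as an alternative only.

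Mean intensities were background-corrected by normexp (offset 50), normalized by loess within arrays and Aquantile between arrays, and fitted per channel with limma 3.58.1 (lmscFit, intraspot correlation 0.225, statmod 1.5.0, the data.table package in version 1.17.8, R 4.3.3). All 8 channels entered as 4 groups, and 3 contrasts were tested with Benjamini-Hochberg adjustment over 16554 probes. Control spots and outlier flags were left out, the latter removing 95 of 16649 probes that passed the filter on dim probes. The number of arrays limits the precision. Fits with 1 array left out used the intraspot correlation of all 4 arrays and took the lone channel to vary like the other groups. The SE is pooled over all groups and so equal in wild type and transgenic contrasts by construction. Plots were drawn with matplotlib 3.10.9, pandas 2.3.3 and numpy 2.4.6.

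Gene lists were found by words in the probe descriptions (8806 of 21495 probes were described). Named cDNAs were the 20 brightest described ones, the 10 largest called differences in each direction and up to 3 called members of each list (8 for low oxygen and MADS-box). The 5 largest bounds of called, described probes in each direction were named too. For naming, members that share only a word with a list were passed over. The wild type channels and the lists were chosen with earlier results of these data known. Alternatives covered the background correction, the normalization, the filter, the dye term, wild type channels alone and each array left out. Removal of such word-sharing members and of saturated probes was chosen after seeing the data. Some named cDNAs are not reported here.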

Additional observations from a re-analysis of the deposited data

Results flagged for a closer look

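In 3267 of 16554 probes the difference between dsRNAi and antisense arrays in wild type differed from that in the transgenic channels of the same arrays, by the test of the difference itself (limma, adjusted over all probes). The wild type difference lay above the transgenic one in 1975 and below it in 1292. Among the 107 named cDNAs 78 passed this test, 77 of the 87 named outside the bright set and 1 bright cDNA. Those 87 were named for a called wild type difference, which is 1 term of this test. Their share therefore follows in part from that choice. The values given are the wild type difference minus the transgenic difference on the log2 scale. Wild type and transgenic channels share arrays and scans. AK067416 and AK059073 were not well above background in wild type on the antisense arrays, so their values are fitted ones and not measured sizes. Transgenic signals of AK064401, AK070844, AK107134, AK102799, AK066682 and AK109339 were low, so a transgenic difference may not show in these. With median centring in place of loess 73 of the 78 lost their call. No cause was tested.

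Among the largest differences toward the dsRNAi arrays these values were 5.72 for AK065866, 5.60 for AK071495, 5.47 for AK064050, 5.39 for AK072235, 4.43 for AK109339, 3.94 for AK066682 and 2.99 for AK059955. Among the largest toward the antisense arrays they were -4.64 for AK063517, -4.54 for AK064401, -3.54 for AK073487, -2.99 for AK070844, -2.88 for AK063592, -2.77 for AK063041, -2.71 for AK102175, -2.44 for AK073356, -2.34 for AK103139 and -2.30 for AK107134.

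Low oxygen cDNAs gave -2.23 for AK102799, -2.11 for AK100678, -2.02 for AK100501, -1.91 for AK102488, -1.88 for AK065739, -1.69 for AK059063, -1.61 for AK071556 and 1.81 for AK065549. The authors' table of values of the series gave 0 for AK100678. AK102488 was not called on that table or on the scanner log ratios (limma adjusted p = 0.108 and 0.109). Both subunits of the glycolytic phosphofructokinase gave -1.50 for AK099939 and -1.44 for AK069095. The 5 named MADS-box cDNAs that passed, of 8 in the list, gave -1.28 for AK069103, -1.24 for AK100233, -1.12 for AK069331, -1.03 for AK064704 and -0.73 for AK061899. KNOX cDNAs gave 2.96 for AK060316, 1.37 for AK111877 and 0.69 for AK107296, and other regulators of the inflorescence gave -1.31 for AK106306, -1.02 for AK107191 and 0.90 for AK100294. The pollen allergen gave 1.53 for AK070662 and the globulin-like cDNA -1.38 for AK063624.

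Photosynthesis cDNAs gave 1.63 for AK061619, 1.24 for AK060265 and 1.11 for AK060904. Metallothioneins gave 3.66 for AK103162, 2.45 for AK058313 and 1.52 for AK103445, antioxidant enzymes 3.50 for AK067416 and 2.04 for AK105605, and the bulb chitinase 3.94 for AK060033. Jasmonate cDNAs gave 2.98 for AK073529 and 2.72 for AK107161, the nuclease 3.58 for AK059608, wall enzymes 2.37 for AK064768 and 2.04 for AK067085, the cold acclimation protein 1.86 for AK062295 and heat shock cDNAs 1.72 for AK101182, 1.47 for AK060381 and -0.74 for AK063618.

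Cell division cDNAs gave 1.56 for AK063671, 1.40 for AK073063 and -1.10 for AK098991, ribosomal ones -1.63 for AK061449 and 0.82 for AK060711 and the bright S-adenosylhomocysteine hydrolase 0.61 for AK059712. Of the hormone lists, auxin gave -3.28 for AK073365, -1.77 for AK103312 and -0.86 for AK109363, ethylene 2.15 for AK106057, gibberellin 1.52 for AK059073, 1.41 for AK101713 and -1.36 for AK107142 and cytokinin 1.99 for AK068276, -1.0 for AK058585 and -0.91 for AK101022. The clock and light cDNAs gave -2.37 for AK111726 and -1.10 for AK062972.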

How the results depend on the processing

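Probes higher in wild type on the dsRNAi arrays numbered 2899, with 442 under median centring in place of loess, 1584 with a dye term (3055 with a dye term in wild type channels alone) and 1900 to 2401 with 1 array left out. Those higher on the antisense arrays numbered 2988, with 290, 1308 (3082) and 1792 to 2212 in the same order. The transgenic contrast called 420 probes, with 262 on Agilent's processed signals, 18 under median centring, 20 with a dye term and 38 to 257 with 1 array left out. The test between both contrasts called 3267, with 14, 7778 and 1985 to 2241 under the last 3 of these. In the low oxygen list the 12 higher on the dsRNAi arrays became 2 under median centring, 7 with a dye term and 7 to 9 with 1 array left out, and the 15 higher on the antisense arrays became 9, 9 and 10 to 14. Without saturated wild type probes 0 of the 20 brightest cDNAs remained, by construction. The cause of the other shifts was not tested. For single named cDNAs, 1717 of 1791 alternative values of the wild type difference kept direction and side of the threshold, 64 lost the call, 10 gained it and 0 turned direction. For the wild type minus transgenic difference 1626 of 1790 kept both, 137 lost the call and 27 gained it. Of the lost calls 73 fell under median centring alone, where most of the 78 called cDNAs were no longer called. Of 796 alternative list counts 677 stayed within 1.5-fold and 119 moved further. No paired analysis was possible because the labels give no replicate numbers that pair arrays across both constructs, and the dye term is the nearest alternative.

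With 2 wild type channels a pair, the SE covers the spread between arrays and not that between plants. Dim spots left 704 probes on the dsRNAi and 160 on the antisense arrays with bounds, and saturation limited the brightest cDNAs.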

Other observations

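The wild type levels are set here beside the mean of the 4 transgenic channels, which lie on the same arrays and entered the same fit. These values share samples with the comparisons above and are a description, with no test. Chitinase AK065866 had mean log2 signals of 8.59 in wild type on the antisense arrays, 14.00 in wild type on the dsRNAi arrays and 14.92 in the transgenic channels. The Bowman-Birk inhibitor AK064050 had 7.80, 12.84 and 13.88 in the same order, and the cysteine protease AK071495 had 7.14, 12.15 and 15.14. In these 3 cDNAs the transgenic mean lay above both wild type means and nearer to that of the dsRNAi arrays. They are examples, and others of the 10 largest differences toward the dsRNAi arrays had transgenic means near the wild type of the antisense arrays. The jasmonate-induced protein AK066682 had 6.74, 11.34 and 6.67, AK109339 had 6.60, 11.07 and 6.31, and AK059955 had 8.55, 12.67 and 8.90. The OsMT-1 cDNA AK103162 had 7.50, 10.26 and 13.69, with the transgenic mean above both wild type means. The second OsMT-1 cDNA, AK103445, had 6.39, 8.53 and 7.63, with the transgenic mean between them.

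Pyruvate decarboxylase 1 AK100678 had 15.81, 13.05 and 7.26, and alpha-amylase AK073487 had 14.64, 9.07 and 8.23, so that for both the transgenic mean was the lowest. The alpha-amylase mean mixes transgenic signals of 9.41 and 9.07 on the antisense arrays with 7.06 and 7.36 on the dsRNAi arrays. The dehydrin AK063517 had 14.36, 9.75 and 9.84, with the transgenic mean close to the wild type of the dsRNAi arrays. The At3g41950-like cDNA AK106985, which was called in both kinds of channel, had 8.25, 12.84 and 10.10. Its transgenic signals were 7.95 and 7.69 on the antisense arrays and 12.19 and 12.58 on the dsRNAi arrays, so no channel lay near that mean.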
